A study of Mus musculus with 2 samples.

Results

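B cells were found among splenic cells that had been sorted as natural killer (NK) cells and then sequenced cell by cell on a droplet platform that reads the 3' ends of transcripts. The mice were either controls or animals under dietary restriction (DR), and each group was represented by 1 library. The labels gave no strain, age, sex or number of mice, no length or degree of restriction, and no sorting gate. A barcode counted as a B cell when it held at least 500 genes, at most 10% mitochondrial transcripts, at least 2 unique molecular identifiers (UMIs, counted transcript molecules) of Cd79a, at least 1 of Ms4a1 or Ebf1, and 0 of Ncr1, Klrb1c and Cd3e. Of 11607 barcodes that passed the filters on genes and mitochondrial transcripts, 489 met this rule, 89 in the control and 400 in the DR library. Because the cells were selected on measured levels of these genes, their Cd79a, Ms4a1 and Ebf1 values describe the choice. With 1 library per group no difference had a replicate check, no test was possible, and every comparison is between these libraries rather than between diets.

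B cells recognise antigen through a membrane immunoglobulin paired with the signalling chains CD79A and CD79B, and present peptides to T cells on MHC class II. In the mouse spleen most are resting follicular cells, which recirculate through B cell follicles, and a smaller population of marginal zone cells sits beside the blood sinus and responds early to blood-borne antigen. Each cell usually uses either a kappa or a lambda light chain, and kappa is the more common in mice. Activated cells can switch the heavy chain class and become plasma cells that secrete antibody.

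B cells by this rule made up 1.62% of the 5487 retained control barcodes (exact Clopper-Pearson 95% interval 1.30 to 1.99) and 6.54% of the 6120 retained DR barcodes (5.93 to 7.18). The DR share was 4.03 times the control share, and between 3.28 and 6.72 times under the other forms of the rule that were tried. T-gated cells, with at least 1 UMI of Cd3e and of a T cell receptor constant gene, were also unequal, at 6 in control and 342 in DR. The labels describe neither the gate nor its purity, so a difference in the sort and a difference in the spleen cannot be told apart. Cd79a was far from the threshold in most cells, with a median of 28.0 UMIs and a maximum of 111 in control and 24.0 and 95 in DR cells. Just inside the threshold, 5 control and 2 DR cells held exactly 2 Cd79a UMIs. Just outside it, 7 control and 8 DR barcodes held 1 and met the other conditions. The condition on NK and T cell genes removed 62 of 151 otherwise qualifying control barcodes (41.1%) and 152 of 552 in the DR library (27.5%). The removed barcodes had median depths of 12475.5 and 12623.5 UMIs, and 29 control and 53 DR barcodes among them held a single UMI of those genes. The barcodes with the highest doublet scores were marked, 4.43% of control and 5.92% of DR barcodes, shares that were set in advance from the number of barcodes. They included 1 control and 0 DR B cells. Because the rule had already removed barcodes with NK and T cell genes, this count cannot show how many mixed barcodes remained.

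The B cells held 851227 UMIs in the control and 3308329 in the DR library. Median depth was 8356.0 UMIs and 2439.0 genes per control cell and 6603.5 UMIs and 2105.5 genes per DR cell, with mitochondrial medians of 2.90% and 3.71%. NK-gated cells, with at least 2 UMIs of Ncr1 and Klrb1c together and 0 of Cd79a and Cd3e, showed the same order (7309.5 and 5643.5 UMIs, mitochondrial 1.64% and 2.46%). The libraries shared 13 barcodes, of which 1 was a control B cell. Xist was detected in both sets of B cells, at 964.5 counts per 1000000 UMIs (CPM) in the control and 1244.7 CPM in the DR library.

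Markers that played no part in the selection were those of B cells. Cd79b, the partner signalling chain of Cd79a, was at 2293.2 CPM in control against 2151.2 CPM in DR B cells, beside 4.77 and 6.92 CPM in NK-gated cells. It was detected in 96.6% of control and 99.5% of DR B cells, and in 3.31% and 3.94% of NK-gated cells. Ly6d, a surface protein of the B lineage, was at 2682.0 and 1875.6 CPM in B cells and at 1.89 and 3.35 CPM in NK-gated cells. Cd74, the invariant chain of MHC class II, was at 14372.2 and 16050.7 CPM. Pax5, the factor that maintains B cell identity, was at 319.5 and 294.4 CPM. The selecting genes were at 3264.7 and 3230.6 CPM for Cd79a, 1528.4 and 1197.6 CPM for Ms4a1 (CD20), and 1292.3 and 1307.9 CPM for Ebf1, an early B lineage factor.

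Transcripts of other cells were present at low levels. The 18 NK markers summed to 634.4 CPM in control against 453.4 CPM in DR B cells, beside 52593.1 and 48763.2 CPM in NK-gated cells, and 2 of the 18 were at 0 in each library, where the rule had set Ncr1 and Klrb1c to 0. Among these markers were 2 genes that NK cells transcribe heavily. The chemokine gene Ccl5 was at 216.2 and 130.3 CPM, in 82.0% and 57.5% of B cells, and granzyme A (Gzma) at 121.0 and 75.6 CPM, in 62.9% and 41.2%. T cell markers summed to 27.0 and 39.0 CPM, with 7 of 15 at 0 in control and 5 in DR, and macrophage and monocyte markers to 41.1 and 53.5 CPM. Neutrophil markers summed to 12.9 and 2.12 CPM, erythroid markers to 11.7 and 30.8 CPM and platelet markers to 4.70 and 7.25 CPM. The 7 basophil and mast cell markers were all at 0. The part of these transcripts in the ratios below was not tested beyond leaving out the cells that held most of them.

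The comparison of B cells between the libraries covered the 2598 genes that averaged 50 CPM or more. A gene counted as higher or lower in DR at a ratio of at least 1.5 with a 95% counting interval that left out 1, and otherwise as between these limits. By that rule 31 genes (1.19%) were higher and 61 (2.35%) lower, and the median log2 ratio of DR over control was -0.04. The 61 lower genes include the NK markers Ccl5 (-0.73) and Gzma (-0.68), which no longer counted as lower with cells thinned to 2000 UMIs. The split depended on the scaling: of all genes past the limits 33.7% were higher with CPM, and 54.8% (51 higher, 42 lower) with median-of-ratios scaling. The intervals cover counting error only, and 1 cell could carry much of a gene in the 89 control cells.

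**Figure D1:**
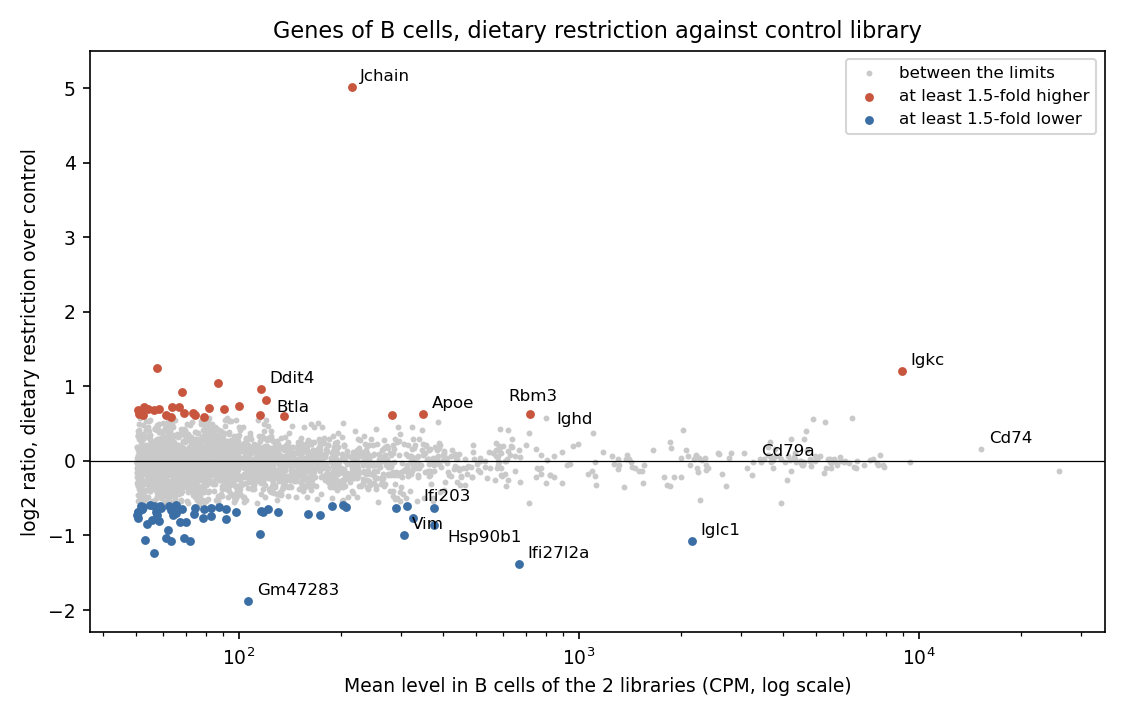
Each point is 1 of the tested genes, with its mean CPM in the B cells of both libraries on a log axis against the log2 ratio of DR over control. Coloured points are genes past the 1.5-fold limits. Ifi27l2a and Ifi203 lie below 0 and Igkc and Rbm3 above it, while Cd79a and Cd74 stay near 0; Ighg2c, with 0 control UMIs, has no finite ratio and is not drawn.

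Interferon-inducible genes were lower in the B cells of the DR library. Interferons act through receptor-associated kinases on a complex of transcription factors that binds response elements in the promoters of antiviral genes. The type I interferon list held 21 genes, 20 of them in the files, and 5 reached 50 CPM. All 5 were at least 1.5-fold lower in DR, with a median log2 ratio of -1.04 beside -0.04 over all tested genes and 2.35% of all tested genes lower. The same list had 14 measured genes from 20 CPM on, of which 11 were lower and 0 higher. With cells thinned to 2000 UMIs all 5 were lower (median -1.17). With at most 2 UMIs of NK and T cell genes per cell, which left 36 control and 270 DR cells, 6 of 7 measured genes were lower (median -1.45).

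Ifi27l2a, an interferon-induced mitochondrial and membrane-associated protein, was at 964.5 CPM in control B cells (821 UMIs, interval 899.6 to 1032.8) and 369.4 CPM in DR B cells (1222 UMIs, 348.9 to 390.7). The log2 ratio was -1.38 (-1.51 to -1.26), and no single cell held more than 11.2% of its UMIs in either library. Cells with a UMI made up 80.9% of control and 63.5% of DR B cells, and 59.3% and 32.6% once every cell was thinned to 2000 UMIs. In NK-gated cells the gene was at only 10.0 and 6.70 CPM, so its level in B cells lay far above what the NK-gated cells carried. The gene is on the minus strand of chromosome 12 (mm10, positions 103442167 to 103443680). It stayed past the limit in all 14 other settings, with log2 ratios from -1.99 in lambda cells to -1.0 in cells with an Fcer2a UMI.

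Transcription factors of the pathway were lower too. Irf9, a DNA-binding subunit of that complex, was at 85.8 CPM in control against 40.8 CPM in DR B cells (log2 ratio -1.07, -1.49 to -0.64), with UMIs in 47.2% and 23.8% of cells. Irf1, a factor induced mainly by interferon gamma, was at 89.3 and 50.5 CPM (-0.82, -1.22 to -0.41).

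Among the effectors, Bst2 (tetherin), which holds enveloped virus at the cell surface, was at 82.2 CPM in control against 39.9 CPM in DR B cells (-1.04, -1.47 to -0.60). Ifi203, a nuclear DNA-binding protein of the HIN200 family, was at 410.0 and 242.7 CPM (-0.76, -0.94 to -0.57) and was detected in 87.6% and 69.2% of cells. Its relatives Mndal (457.0 and 294.7 CPM, -0.63), Ifi209 (244.4 and 162.0 CPM, -0.59) and Ifi206 (70.5 and 40.8 CPM, -0.79) were lower as well. Reads of these neighbours may be shared among copies, which makes each of their values uncertain. Ifi27, a relative of Ifi27l2a, was at 92.8 and 45.0 CPM (-1.04), and Samhd1, which depletes the nucleotides that viruses need, at 375.9 and 248.8 CPM (-0.60). Irgm1, an immunity-related GTPase, was at 69.3 and 38.4 CPM (-0.85), Trim30a at 116.3 and 67.7 CPM (-0.78) and its near copy Trim30b at 78.7 and 33.6 CPM (-1.23). Irf1, Mndal, Ifi209, Ifi206, Ifi27, Samhd1, Irgm1, Trim30a and Trim30b are outside the list and were grouped here after their values were seen. With median-of-ratios scaling Mndal, Ifi209 and Samhd1 were between the limits. With at most 2 UMIs of NK and T cell genes per cell, Irf9 (-0.59), Irf1 (-0.21) and Irgm1 (-0.52) no longer counted as lower, being between the limits or under 50 CPM there. With cells thinned to 2000 UMIs the same applied to Irf1, Ifi206, Ifi209 (-0.12), Samhd1 and Trim30a. It applied to Irgm1 and Ifi206 within kappa cells, to Irf1, Mndal, Ifi206, Ifi27, Samhd1 and Trim30b within lambda cells, and to Ifi203 (-0.48), Mndal, Ifi209, Irgm1 and Trim30a among cells with an Fcer2a UMI. All these ratios stayed below 0.

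**Figure D2:**
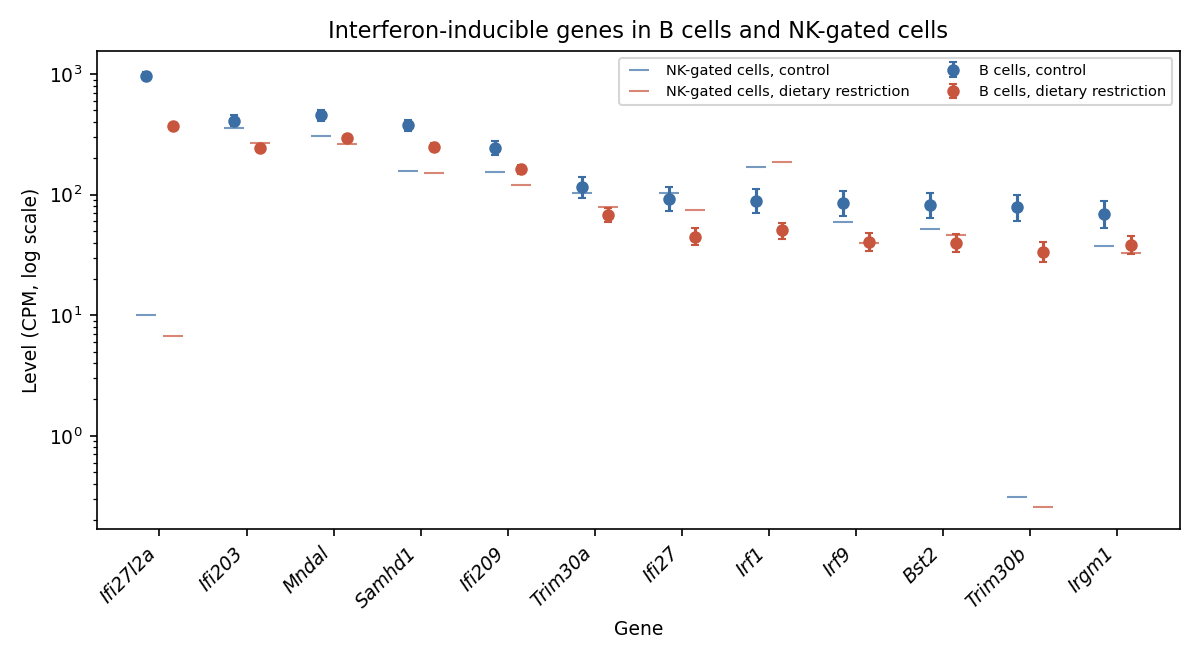
The log axis gives the level (CPM) of 12 interferon-inducible genes, with points for B cells and 95% counting intervals as bars, and dashes for NK-gated cells of the same library. Control points lie above DR points for each gene in B cells, from Ifi27l2a at 964.5 against 369.4 CPM to Irgm1 at 69.3 against 38.4 CPM.

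Ifi27l2a, Irf9, Ifi203 and Bst2 had smaller ratios in NK-gated cells, with no test of the difference. Their log2 ratios there were -0.58 for Ifi27l2a, -0.58 for Irf9, -0.43 for Ifi203 and -0.18 for Bst2. Counted per cell, UMIs of these 4 genes had a median of 10.9 per 10000 UMIs in control B cells (quartiles 6.15 and 19.9, maximum 76.2) and 4.83 in DR B cells (2.21 and 8.39, maximum 87.1). Cells with no such UMI numbered 4 of 89 and 40 of 400. The distributions overlapped throughout, and the shift was spread over the cells rather than carried by a few. Without Ifi27l2a the medians were 4.67 and 2.61. NK-gated cells had medians of 4.09 and 2.89 with all 4 genes. T-gated cells had medians of 14.4 in control, from only 6 cells, and 5.42 in DR, from 342 cells.

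**Figure D3:**
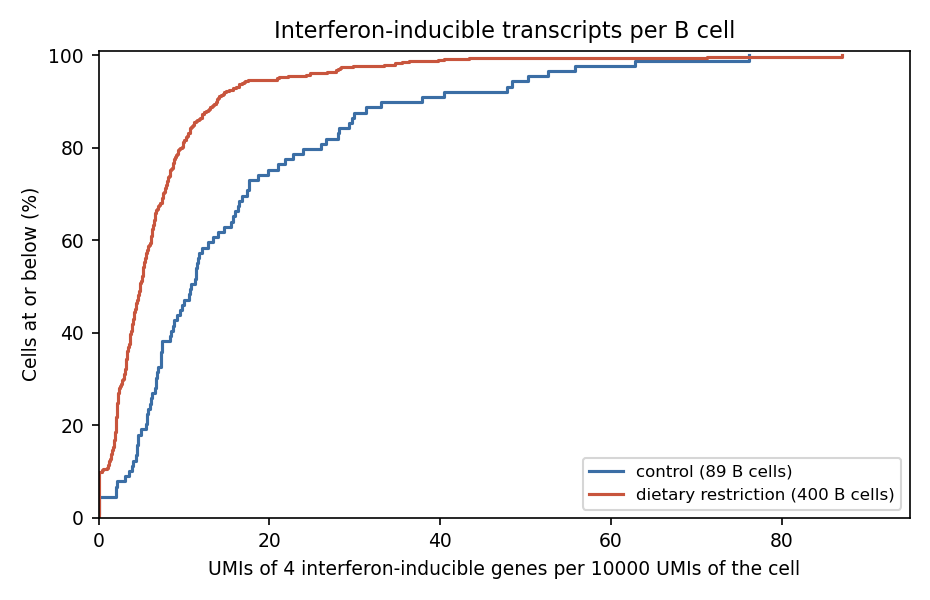
Each step line gives the percentage of B cells at or below a given number of UMIs of Ifi27l2a, Ifi203, Irf9 and Bst2 per 10000 UMIs of the cell. The DR line lies to the left of the control line, with medians of 4.83 and 10.9, and the lines reach maxima of 87.1 and 76.2.

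Promoter windows from RefSeq (build GRCm38.p6, 250 bases before to 50 bases after each start) were searched on both strands for GAAANNGAAA, the core letters of an interferon-stimulated response element. Of all 32851 windows 1131 (3.44%) held it. Among windows of the genes lower in DR, 10 of 62 (16.1%) did, and among those of the genes higher in DR, 1 of 32 (3.12%). Of 13 interferon-inducible genes looked up 11 had a window, and 6 of them (Bst2, Ifi203, Irgm1, Trim30a, Mndal and Ifi206) held the motif. All 13 were among the genes lower in DR, and many had been grouped after their values were seen. Their windows numbered 16, of which 8 held the motif, so most matches among the lower genes were theirs. The share of the lower genes is therefore no separate result, and the other lower genes were not tested apart. The windows of Bst2 (chr8:71537423-71537722, minus strand), Ifi203 (chr1:173942443-173942742, minus strand) and Irgm1 (chr11:48871371-48871670, minus strand) are shown 5' to 3' because they pair a lower transcript with the motif close to the start, and the capitals mark the match. In Bst2 the match starts 130 bases before the annotated start, in Ifi203 35 bases and in Irgm1 30 bases, and in Bst2 and Irgm1 the capitals cover 2 overlapping matches.
Bst2: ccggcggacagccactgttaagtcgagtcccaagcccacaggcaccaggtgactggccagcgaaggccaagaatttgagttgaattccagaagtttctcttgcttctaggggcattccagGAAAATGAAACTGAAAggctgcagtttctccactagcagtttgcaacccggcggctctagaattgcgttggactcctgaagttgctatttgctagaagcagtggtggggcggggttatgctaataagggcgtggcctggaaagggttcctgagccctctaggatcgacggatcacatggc
Ifi203: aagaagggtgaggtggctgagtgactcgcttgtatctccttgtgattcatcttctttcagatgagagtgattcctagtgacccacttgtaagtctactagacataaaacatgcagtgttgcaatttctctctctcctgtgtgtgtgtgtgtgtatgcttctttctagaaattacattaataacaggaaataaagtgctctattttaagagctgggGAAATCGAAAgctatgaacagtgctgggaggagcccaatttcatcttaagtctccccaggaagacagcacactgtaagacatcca
Irgm1: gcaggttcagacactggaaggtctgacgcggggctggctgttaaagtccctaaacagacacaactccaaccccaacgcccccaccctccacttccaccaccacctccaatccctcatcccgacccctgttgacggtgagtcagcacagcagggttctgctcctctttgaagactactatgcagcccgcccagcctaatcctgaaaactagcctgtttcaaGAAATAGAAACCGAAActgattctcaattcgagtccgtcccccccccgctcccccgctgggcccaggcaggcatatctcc

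A match describes the letters only, and binding was not measured. The windows of Irf9, Irf1, Samhd1, Ifi209 and Trim30b did not hold these letters.

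Light-chain use differed between the libraries. A cell was called kappa where Igkc made up at least 0.5 of its Igkc, Iglc1, Iglc2 and Iglc3 UMIs, and lambda otherwise, so the classes are ranges of a fraction. Lambda cells numbered 43 of 88 control B cells with a light-chain UMI (48.9%, exact interval 38.1 to 59.8) and 50 of 400 DR B cells (12.5%, 9.42 to 16.1). The fraction lay between 0.4 and 0.6 in 9 control and 41 DR cells. Cells with a kappa fraction under 0.1 numbered 29 in control and 24 in DR. The shares were 41.7% to 49.4% in control and 12.4% to 19.2% in DR with other forms of the rule, including the barcodes excluded for NK or T cell genes.

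**Figure D4:**
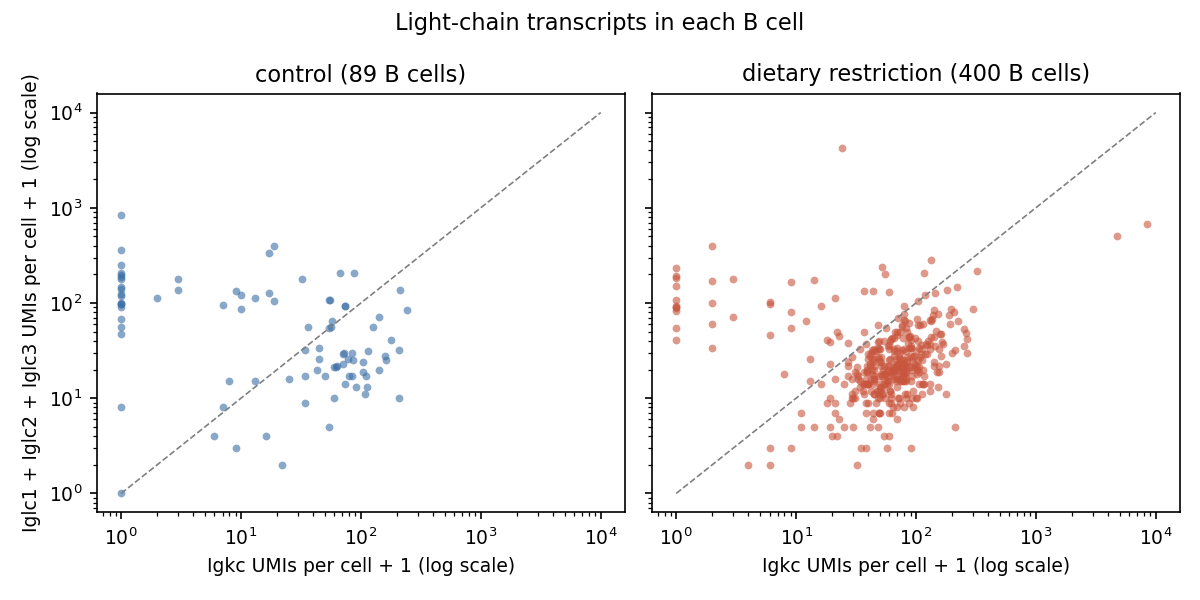
Each point is 1 B cell, with Igkc UMIs plus 1 against the summed Iglc1, Iglc2 and Iglc3 UMIs plus 1 on log axes, and the dashed line marks equal values. Control cells fall on both sides of the line (43 lambda, 45 kappa), whereas DR cells lie mainly below it (50 lambda, 350 kappa).

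Igkc, the kappa constant region on chromosome 6, was at 5429.8 CPM in control against 12439.5 CPM in DR B cells (log2 ratio 1.20, 1.15 to 1.24), with 20.3% of the DR UMIs in 1 cell. Among kappa cells alone it was at 10986.3 and 13968.3 CPM (0.35), between the limits. Of the 39999 Igkc UMIs of DR kappa cells, 8371 lay in 1 cell and 4748 in another. The ratio among kappa cells without them was not computed, so its sign is uncertain. Iglc1, a lambda constant region on chromosome 16, was at 2926.4 and 1384.7 CPM (-1.08, -1.15 to -1.01), but at 0.67 among kappa and 0.09 among lambda cells. Iglc2 was at 4688.5 and 3175.9 CPM (-0.56) and Iglc3 at 1226.5 and 1286.1 CPM (0.07). In the DR library 1 lambda cell held 4252 UMIs of Iglc1, Iglc2 and Iglc3 together. Over the other settings the Iglc2 ratio ran from -1.37 to 1.05, the latter among lambda cells. Iglc2 and Iglc3 are near-identical, so reads may be split between them. Kappa cells also held lambda UMIs, with Iglc2 at 1580.6 CPM in control kappa cells and 1421.7 CPM in those of DR, beside 3.84 and 6.41 CPM in NK-gated cells.

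Lambda cells of the control library differed from its kappa cells in subset genes, with median depths of 9589.0 and 6907.0 UMIs. Fcer2a (CD23), the low-affinity IgE receptor of follicular cells, was at 416.7 CPM in control kappa and 173.5 CPM in control lambda cells (log2 ratio of lambda over kappa -1.26, -1.67 to -0.87). Ighd (IgD), the isotype of mature naive cells, was at 1011.1 and 375.5 CPM (-1.43). Genes linked to marginal zone cells were at the other end. Plac8 was at 691.7 and 1457.0 CPM (1.07), Dtx1, a Notch target, at 80.6 and 189.8 CPM (1.24), and Cr2 (CD21), the complement receptor, at 283.3 and 457.1 CPM (0.69). Bhlhe41, a transcription factor of B-1 cells, was at 13.9 and 93.9 CPM (2.76, 1.43 to 4.45), from 5 and 46 UMIs. In the DR library the same ratios were -0.57 for Fcer2a, -0.20 for Ighd, 0.04 for Plac8, 0.57 for Dtx1, -0.02 for Cr2 and 0.28 for Bhlhe41. Apoe, an apolipoprotein, was higher in lambda than in kappa cells in both libraries (0.80 in control, 1.13 in DR). These genes were chosen after the light-chain classes were seen.

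Markers of the splenic subsets were mostly between the limits over all B cells. Of 11 measured follicular genes 1 was higher in DR (Ccr7), with a median log2 ratio of 0.07. Of 11 measured marginal zone genes 1 was lower (Fcrl5) and 10 were between the limits (median -0.18, with 10 of 11 below 0). With cells weighted equally 3 marginal zone genes were lower (median -0.44). Among kappa cells 3 of 12 measured follicular genes were lower and 0 higher (median -0.32), and with at most 2 UMIs of NK and T cell genes per cell 3 of 11 were lower and 1 higher. Ccr7, the receptor that draws B cells to T cell zones, was at 69.3 CPM in control against 111.5 CPM in DR B cells (0.69, 0.29 to 1.11), and no longer counted as higher within kappa cells, within lambda cells, among cells with an Fcer2a UMI and at equal depth. Fcrl5, an Fc receptor-like protein of marginal zone and memory cells, was at 74.0 and 42.6 CPM (-0.80, -1.23 to -0.34), and no longer counted as lower in the same settings. Fcer2a was at 276.1 and 235.5 CPM (-0.23), Cxcr5, the follicle-homing receptor, at 124.5 and 122.7 CPM (-0.02), Cr2 at 383.0 and 348.2 CPM (-0.14) and Cd1d1, a lipid-presenting molecule rich in marginal zone cells, at 59.9 and 54.4 CPM (-0.14). Ighd was at 643.8 and 961.5 CPM (0.58, just inside the limit of 0.585), while it was at -0.05 among kappa and 1.18 among lambda cells. Ighm (IgM) was at 3554.9 and 3979.4 CPM (0.16).

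At 2000 UMIs per cell, with 8 control and 4 DR cells too shallow to enter, the shares with an Ighd UMI were 60.5% in control (49.0 to 71.2) and 74.7% in DR (70.2 to 79.0). The Fcer2a shares were 42.0% (31.1 to 53.5) and 38.1% (33.3 to 43.1), and those of Cr2 34.6% (24.3 to 46.0) and 32.3% (27.7 to 37.2). Vpreb3, a protein of precursor and newly formed B cells, was found in 22.2% (13.7 to 32.8) and 36.9% (32.1 to 41.8). Without thinning the 4 genes were found in 83.1% and 89.2%, 59.6% and 61.5%, 55.1% and 57.8%, and 44.9% and 63.5%. In NK-gated cells thinned alike the shares were 0.260% and 0.846% for Ighd, 0.722% for Cr2 in DR, 0.0400% and 0.0826% for Vpreb3 and 0.0619% for Fcer2a in DR. Fcer2a was in 0 of 4996 thinned control NK-gated cells, which allows a share of up to 0.0600%.

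**Figure D5:**
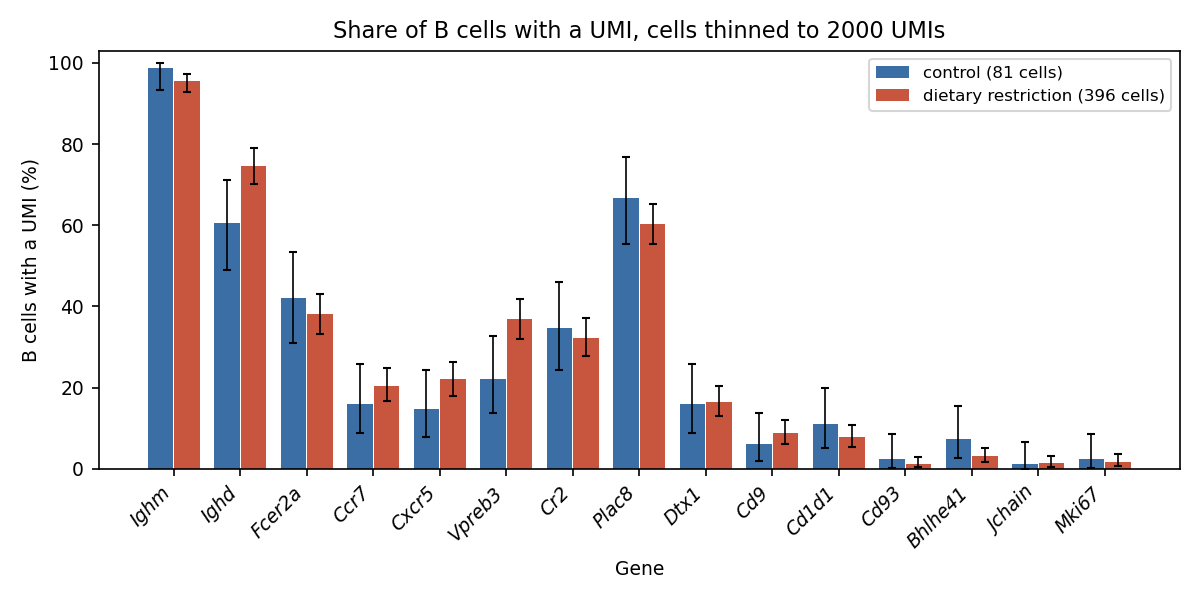
Bars give the percentage of B cells with a UMI of each gene after thinning to 2000 UMIs per cell (81 control and 396 DR cells), with exact 95% Clopper-Pearson intervals. Ighd and Vpreb3 stand higher in DR (74.7% and 36.9%) than in control (60.5% and 22.2%), and the intervals of the libraries overlap for Ighd, Vpreb3, Fcer2a and Cr2 alike.

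Of the B-1 list, 4 genes were measured and all were between the limits. Capg, an actin-capping protein, was at 440.5 and 302.6 CPM (-0.54). None of 11 germinal centre genes reached 50 CPM. Both Ighm and Ighd were found in 73 control (82.0%) and 357 DR B cells (89.2%), and switched transcripts outnumbered IgM and IgD in 1 control and 9 DR cells.

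A few DR cells carried nearly all transcripts of Jchain and Ighg2c. Jchain, which joins secreted IgM and IgA, had 11 UMIs in control and 1382 in DR B cells, of which 774 and 545 lay in 2 cells. Its levels were 12.9 and 417.7 CPM, a log2 ratio of 5.01 that was lost once cells with plasma cell genes were left out. Ighg2c had 0 control UMIs and 3052 in DR, at least 261.8-fold higher against a floor of 3 UMIs over the control cells. However, 3031 of them came from 1 cell and 21 from all others. Igha, in contrast, had 63 control UMIs, of which 49 lay in 1 cell, and 23 DR UMIs. Cells with at least 10 Jchain UMIs numbered 1 in control and 4 in DR. Of the plasma cell list Hsp90b1 (GRP94), an endoplasmic reticulum chaperone, was lower in DR, at 485.2 and 267.2 CPM (-0.86, -1.03 to -0.69), while Mzb1 (659.0 and 684.3 CPM) and Xbp1 (71.7 and 74.4 CPM) were between the limits. Hsp90b1 UMIs were found in 80.9% of control and 63.5% of DR cells, and the gene was between the limits (-0.53) when at most 2 UMIs of NK and T cell genes were allowed. Mzb1, a chaperone of immunoglobulin assembly, was found in 83.1% of control and 83.8% of DR cells.

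Of the endoplasmic reticulum protein-folding genes named here, those past a limit were lower in DR and the others were between the limits. Pdia6, a protein disulphide isomerase, was at 198.5 and 121.2 CPM (-0.71, -0.97 to -0.44) and Canx (calnexin), a lectin chaperone, at 160.9 and 99.4 CPM (-0.69, -0.99 to -0.40). Both stayed past the limit in all 14 other settings. Ero1lb, the oxidase that recharges disulphide isomerases, was at 98.7 and 58.3 CPM (-0.76), and Hspa5 (BiP), the main chaperone of this compartment, at 363.0 and 272.9 CPM (-0.41), between the limits. Also between the limits were the disulphide isomerases Pdia4 (266.7 and 208.9 CPM, -0.35) and Txndc5 (122.2 and 152.0 CPM, 0.32) and the translocon subunit Sec61b (321.9 and 329.2 CPM, 0.03). Ero1lb no longer counted as lower when thinned (-0.38) and with few NK and T cell UMIs (-0.48). These genes were brought together after their values were seen and form no fixed list. In NK-gated cells the log2 ratios were -0.46 for Hsp90b1 and -0.28 for both Pdia6 and Canx.

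Measured genes of the glucocorticoid response list leaned towards DR. The list held 14 genes, of which 7 reached 50 CPM. Fkbp5, Per1, Sgk1, Klf9 and Dusp1 were among those that did not. Of the 7 measured genes 3 were higher, beside 1.19% of all tested genes, and the median log2 ratio was 0.52. Ddit4 (REDD1), an inhibitor of mTORC1, was at 78.7 CPM in control against 153.6 CPM in DR B cells (0.96, 0.59 to 1.35), with UMIs in 39.3% and 59.0% of cells. Pik3ip1, an inhibitor of phosphoinositide 3-kinase, was at 47.0 and 89.2 CPM (0.92, 0.44 to 1.44). Cxcr4, the receptor for the marrow chemokine CXCL12, was at 62.3 and 101.6 CPM (0.71, 0.28 to 1.15). Tsc22d3 (GILZ), the best known target, was at 273.7 and 374.2 CPM (0.45), Zfp36l2, an RNA-decay factor, at 317.2 and 455.2 CPM (0.52), and the receptor gene Nr3c1 at 92.8 and 82.8 CPM (-0.16). Within kappa cells 1 gene of the list, Ddit4, was higher and the median was 0.23, and 1 was higher at equal depth. In NK-gated cells the ratios were 0.49 for Ddit4, 0.88 for Pik3ip1, 0.81 for Cxcr4 and 0.62 for Tsc22d3.

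Rbm3 encodes an RNA-binding protein induced by cold and was at 563.9 CPM in control against 870.8 CPM in DR B cells (0.63, 0.49 to 0.77) and had a like ratio of 0.62 in NK-gated cells. Its relative Cirbp was at 141.0 and 192.8 CPM (0.45, 0.17 to 0.75), between the limits, against 0.87 in NK-gated cells. Of the 9 measured cold-inducible and heat shock genes Rbm3 alone was past a limit, and Hspa8 was at -0.29 and Hsp90ab1 at -0.08. Among 11 measured FOXO and nutrient-sensing genes 1 was higher (Pik3ip1) and 5 had ratios above 0.

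Other genes higher in DR B cells included Ccnd3 (cyclin D3), which drives B cell growth, at 56.4 and 117.0 CPM (1.05, 0.62 to 1.52), although it was at 0.24 among kappa and 2.44 among lambda cells. Btla, an inhibitory receptor, was at 86.9 and 153.6 CPM (0.82, 0.47 to 1.19), Sorl1, a sorting receptor, at 75.2 and 124.8 CPM (0.73), and Apoe at 273.7 and 425.0 CPM (0.63), with at most 11.2% of its UMIs in 1 cell. Hmgn1, a nucleosome-binding protein, was at 222.0 and 341.0 CPM (0.62), and the ranking also held Smdt1 (0.60), Sypl (0.61), Pcmtd1 (0.72) and the proteasome subunit Psmd13 (0.72). Stmn1 (stathmin) was at 34.1 and 81.0 CPM (1.25), and 69.0% of its control UMIs lay in 1 cell, which raised the control level. Its ratio was 2.28 among kappa cells and ran from 0.21 to 2.85 over the other settings. With at most 2 UMIs of NK and T cell genes per cell, Btla (0.58), Sorl1 (0.28), Hmgn1 (0.36), Smdt1 (0.21), Sypl, Pcmtd1 and Stmn1 no longer counted as higher. Sorl1 also lost the call when thinned and within kappa and lambda cells, Hmgn1 in 7 settings in all (down to 0.27), and Apoe with cells weighted equally (0.56). Mki67, a marker of cycling cells, was below 50 CPM, with UMIs in 8 control and 16 DR cells.

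On the lower side, the intermediate filament gene Vim was at 407.6 and 203.7 CPM (95% interval of the log2 ratio -1.19 to -0.81), with 34.6% of the control UMIs in 1 cell, and it was between the limits without the cells that carried plasma cell genes. The histone gene H2afx was at 152.7 and 77.7 CPM (-0.98), with 65.4% of the control UMIs in 1 cell, and at 0.95 among kappa cells. The tubulin genes Tuba1a (97.5 and 46.5 CPM, -1.07) and Tuba1c (71.7 and 34.5 CPM, -1.06) share sequence, so their separate values are uncertain. Snrnp25, of the minor spliceosome, was at 81.1 and 42.9 CPM (-0.92), and Mycbp2, a ubiquitin ligase, at 351.3 and 227.6 CPM (-0.63). Mycbp2 was between the limits with median-of-ratios scaling (-0.57), and both it (-0.22) and the tubulin genes no longer counted as lower with few NK and T cell UMIs. The unnamed gene model Gm47283, outside the ranking, was at 168.0 and 45.6 CPM (-1.88, -2.22 to -1.54), and at -1.30 in NK-gated cells. It is annotated on chromosome Y. Of 6 sex-linked transcripts looked up, 4 had 0 UMIs in the B cells of each library, while Xist was detected in both. The source of the Gm47283 reads was not tested.

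The receptor and presentation machinery differed little. Of 12 measured genes of the antigen receptor complex, 18 of its signalling pathway and 20 B lineage transcription factors, 0 were past a limit, with median log2 ratios of -0.14, -0.18 and -0.13. Within them Lyn, a Src-family kinase, was at 319.5 and 257.5 CPM (-0.31), Bank1, a signalling scaffold, at 676.7 and 564.6 CPM (-0.26), Mef2c at 625.0 and 806.1 CPM (0.37) and Pou2f2 (OCT2) at 680.2 and 542.9 CPM (-0.33). Of 13 measured MHC class II genes 0 were past a limit and 11 were above 0 (median 0.19). H2-Aa was at 4118.8 and 5047.9 CPM (0.29, 0.24 to 0.35), and H2-Oa, part of the modulator of peptide loading, at 247.9 and 340.7 CPM (0.46). Among kappa cells the median of the list was -0.01.

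Survival and homing receptors were mostly between the limits. Tnfrsf13c (BAFF receptor), which sustains mature B cells, was at 348.9 CPM in control against 328.6 CPM in DR B cells (-0.09) and Bcl2 at 206.8 and 177.1 CPM (-0.22). S1pr1, the receptor for exit into blood, was at 205.6 and 167.2 CPM in B cells (-0.30, -0.55 to -0.04), whereas its log2 ratio in NK-gated cells was 1.02. Of 11 measured homing genes 2 were higher (Ccr7 and Cxcr4). Of 9 early activation genes, 7 BAFF and TNF receptor family genes, 4 survival genes, 4 Toll-like receptor genes and 21 nuclear respiratory chain genes, 0 were past a limit, with medians of -0.08, -0.18, -0.16, -0.20 and 0.10. Cd69, an early activation marker, was at 97.5 and 109.1 CPM (0.16). No circadian clock gene reached 50 CPM.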

How the data were processed

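Transcripts were measured in 1 control and 1 dietary restriction library of sorted splenic cells. The authors deposited raw UMI counts for each gene and barcode, written by Cell Ranger 5.0.1 per the file headers. Version 2.1.1 and the build mm10 stand in the submitters' processing notes instead. The files list 32285 genes, and 78 that share a symbol with another were kept apart by identifier. Labels do not mention removal of doublets, so Scrublet in scanpy 1.11.5 was run per library: its automatic threshold called 1 control and 5 dietary restriction barcodes, so the barcodes with the highest scores were marked instead, and kept in the main result. Free RNA could not be subtracted, and NK-gated cells served as the reference for it.

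UMIs of the B cells were summed per library and gene and given as CPM with exact Poisson intervals. Ratios have exact conditional binomial intervals and shares exact Clopper-Pearson intervals, all at 95% and covering counting error only. Shares were computed unthinned and with each cell thinned at random to 2000 UMIs (alternative 1000). The floor for a count of 0 was 3. Cells are not replicates and no p-value is given. The procedure was run on simulated Poisson sums, the model behind the intervals, so this checks the calculation and not the spread between cells. T-gated cells held at least 1 UMI of Cd3e and of Trac, Trbc1 or Trbc2 and 0 of Cd79a.

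The text names the 15 genes ranked highest in each direction by the interval end nearest 1. The ranking leaves out antigen receptor, haemoglobin, ribosomal and mitochondrial genes, other cell types' markers and unnamed models. Up to 4 measured members of each list with the largest absolute ratio and a set of B cell genes were added. Not every gene so named is printed, and some are not reported here; the counts over lists still include them. The cells, lists and rule were chosen with earlier results of these data known. Coordinates come from GENCODE vM21 (mm10) and promoter windows from RefSeq. Software was Python 3.11.15, numpy 2.4.6, scipy 1.17.1, pandas 2.3.3 and matplotlib 3.10.9.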

Additional observations from a re-analysis of the deposited data

How the results depend on the processing

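With 1 library per group no replicate could be left out. No paired analysis was possible because each group has 1 library and the labels give no replicate numbers. The 31 higher and 61 lower genes became 51 and 42 with median-of-ratios scaling, 61 and 98 with cells weighted equally, 123 and 188 from 20 CPM, 11 and 19 from 100 CPM, 69 and 105 when at most 2 UMIs of NK and T cell genes were allowed, and 48 and 109 with cells thinned to 2000 UMIs. In 3 settings chosen after seeing the data they were 47 and 139 (kappa cells), 104 and 142 (lambda cells) and 66 and 115 (cells with an Fcer2a UMI). Many genes in these totals were not past the limits in the main comparison. Of the 31 higher and 61 lower genes, 31 and 42 stayed past the limits with median-of-ratios scaling and 22 and 47 with equal weights. Only 11 and 24 stayed so with few NK and T cell UMIs, and 10 and 26 when thinned. The counts were 10 and 37 in kappa cells, 15 and 33 in lambda cells and 14 and 36 with Fcer2a. The interferon list had 11 lower genes from 20 CPM, and 3 from 100 CPM and among cells with Fcer2a. The glucocorticoid list had 5 higher genes with equal weights, and 1 from 100 CPM, when thinned and among kappa cells. Of 91 genes past the limits, 5 (Ifi27l2a, Pdia6, Canx, Gm26917 and Gm47283) stayed so in all 14 settings in which they were measured. Ratios changed sign for Iglc1 (0.67 in kappa, 0.09 in lambda cells), H2afx (0.12 with few NK and T cell UMIs, 0.55 without plasma-gene cells, 0.95 in kappa cells, 0.11 with Fcer2a), Chd7 (0.02) and Trim56 (0.04) with few NK and T cell UMIs, Trnt1 (0.09) and Nabp2 (0.09) in lambda cells, Nedd4 (0.48) and Tuba1c (0.36) in kappa cells, and Snrpa (-0.17) and Nfkbie (0.10) when thinned; the cause was not tested. The control share of B cells was 2.75% without the condition on Ncr1, Klrb1c and Cd3e and 0.656% with few NK and T cell UMIs, and the DR share was 9.02%, 4.41% and, at no more than 5% mitochondrial UMIs, 5.69%. Unthinned and at 1000 UMIs, the Ighd shares were 83.1% and 44.3% in control and 89.2% and 62.8% in DR, and the Fcer2a shares 59.6% and 23.9% in control and 61.5% and 21.9% in DR. The Cr2 shares were 55.1% in control unthinned, and 57.8% and 22.6% in DR. Lambda cells made up 19.2% of DR barcodes excluded for NK or T cell genes. The 89 control cells limit precision, and genes under 50 CPM were not compared.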
